A study of Mus musculus with 12 samples.

Results

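Accessible chromatin of wild-type FoxA2-high cells was compared with that of wild-type FoxA2-negative cells from the same stage of mouse development. The comparison used 4 of the 12 samples of the study, 2 WT High and 2 WT Negative, which the authors had pooled into 1 ATAC-seq peak list per group. After lines with the same position were merged and autosomes kept, the WT High list held 44195 peaks and the WT Negative list 38439. A peak was called shared when it overlapped a peak of the other list by at least 1 bp, and otherwise High-only or Negative-only. Of the WT High peaks, 21558 were High-only, and of the WT Negative peaks, 15761 were Negative-only. The same was done for the 20000 peaks of each list with the highest score, each looked up in the whole other list.

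ATAC-seq marks open chromatin through a transposase that cuts where DNA is free of nucleosomes. The cells came from embryos at embryonic day 7.5, on a mixed C57Bl6/J x CD-1 background. All were homozygous for FoxA2WT-tagRFP, a knock-in allele that carries a flexible linker and the red fluorescent protein tagRFP behind the FoxA2 coding sequence. Males and females were mixed, the extraembryonic portion was cut away, and cells of about 10 embryos were sorted together. WT High cells were brighter than any heterozygous cell, whereas WT Negative cells lay in the gate without tagRFP, and a WT Middle gate between them was not compared here. Each library was made from 2000 to 5000 cells. The other 6 samples carried the dHx allele, which lacks 10 residues of an alpha helix of FoxA2, sorted in the same way. Because each list stands for many cells, fewer cells with an open site and less opening per cell cannot be told apart. Since both gates hold several cell types of the embryo, the gene lists used here are lists of loci and name no cell type.

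FoxA2 is a forkhead transcription factor that can bind its sites in closed chromatin, and is therefore called a pioneer factor. At gastrulation it is made in the anterior primitive streak, the definitive endoderm, the node and the notochord. The cells around these tissues are epiblast, early neural ectoderm and the mesoderm that leaves the streak.

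The contrast can be read at single promoters. The sequences here are the 250 bases before the RefSeq transcription start (GRCm38.p6, the assembly that mm10 names), read 5′ to 3′ on the strand of the gene. They are shown because the window around each start lay under a peak of 1 of the 2 lists only. Capitals mark matches to the forkhead core TGTTTAC, which reads on the opposite strand as GTAAACA. A first searched variant was TGTTTGC, and it reads on the opposite strand as GCAAACA. The remaining variant was TATTTAC, and it reads there as GTAAATA. The first set had a WT High peak. Foxa1 encodes a close relative of FoxA2, Noto a homeobox factor of the node and notochord, Krt18 an epithelial keratin, and Apoa1 an apolipoprotein of the visceral endoderm and later liver.
Foxa1 (chr12:57546112-57546361, minus strand): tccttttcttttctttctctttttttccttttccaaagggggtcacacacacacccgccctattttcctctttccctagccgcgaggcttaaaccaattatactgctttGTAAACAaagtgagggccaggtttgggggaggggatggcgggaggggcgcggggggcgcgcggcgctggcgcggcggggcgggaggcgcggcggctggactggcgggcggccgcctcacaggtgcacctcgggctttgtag
Noto (chr6:85423636-85423885, plus strand): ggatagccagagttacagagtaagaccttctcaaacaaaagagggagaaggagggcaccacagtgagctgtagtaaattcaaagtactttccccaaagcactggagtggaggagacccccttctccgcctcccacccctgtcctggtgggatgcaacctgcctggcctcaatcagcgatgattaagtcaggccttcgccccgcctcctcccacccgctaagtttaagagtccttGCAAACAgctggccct
Krt18 (chr15:102027966-102028215, plus strand): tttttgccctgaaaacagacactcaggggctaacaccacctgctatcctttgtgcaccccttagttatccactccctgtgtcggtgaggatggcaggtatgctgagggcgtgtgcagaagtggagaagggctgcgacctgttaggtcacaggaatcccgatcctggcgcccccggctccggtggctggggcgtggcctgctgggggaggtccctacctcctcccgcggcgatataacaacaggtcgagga
Apoa1 (chr9:46228380-46228629, plus strand): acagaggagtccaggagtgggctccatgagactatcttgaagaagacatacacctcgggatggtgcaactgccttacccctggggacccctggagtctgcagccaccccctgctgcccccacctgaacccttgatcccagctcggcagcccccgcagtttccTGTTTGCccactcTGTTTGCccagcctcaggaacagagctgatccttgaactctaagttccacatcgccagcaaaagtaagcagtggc

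The second set had a WT Negative peak. Prrx1 encodes a homeobox factor of mesenchyme, Cdx2 a homeobox factor of the posterior streak and trophoblast, and Tfap2a a factor of the surface and neural plate border ectoderm.
Prrx1 (chr1:163313651-163313900, minus strand): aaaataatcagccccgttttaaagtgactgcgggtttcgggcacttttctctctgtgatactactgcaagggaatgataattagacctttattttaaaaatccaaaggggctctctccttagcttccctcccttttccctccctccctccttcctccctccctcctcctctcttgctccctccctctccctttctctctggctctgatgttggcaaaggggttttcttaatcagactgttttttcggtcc
Cdx2 (chr5:147307250-147307499, minus strand): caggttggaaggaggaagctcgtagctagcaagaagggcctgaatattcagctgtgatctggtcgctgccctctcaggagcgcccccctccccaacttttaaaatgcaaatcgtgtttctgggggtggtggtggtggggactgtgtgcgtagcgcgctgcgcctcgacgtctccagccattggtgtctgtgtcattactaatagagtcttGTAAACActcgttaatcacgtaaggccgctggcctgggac
Tfap2a (chr13:40733796-40734045, minus strand): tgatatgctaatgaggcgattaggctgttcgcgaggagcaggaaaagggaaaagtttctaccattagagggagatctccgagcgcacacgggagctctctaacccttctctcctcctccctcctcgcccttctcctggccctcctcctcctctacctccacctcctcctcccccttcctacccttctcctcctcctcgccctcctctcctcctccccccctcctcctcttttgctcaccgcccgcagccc

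At Foxa1 the WT High peak had a score of 4.95 (rank 24259 of 44195), and its window was also covered in every other list except dHx Negative. The Krt18 peak scored 5.97, and the window was covered in both dHx lists of RFP-positive cells and not in dHx Negative. The Noto peak scored 2.19, among the lowest values of its list, and the window was covered elsewhere in dHx Negative alone. The Apoa1 peak scored 4.95 and recurred in WT Middle only. On the other side, the Prrx1 peak scored 15.1 (rank 7077 of 38439) and its window was covered in dHx Negative alone of the other 4 lists. The Cdx2 peak scored 13.8 and its window was covered in all 4, and the Tfap2a peak scored 10.3 with its window covered in every dHx list. The forkhead core stood at base -141 of Foxa1, base -16 of Noto and bases -88 and -75 of Apoa1, counted from the start. It also stood at base -40 of Cdx2, a Negative-side promoter, and was not found in the windows shown for Krt18, Prrx1 and Tfap2a. Nor was it found at Foxa2, with a WT High peak, or Twist1, with a WT Negative peak, which are not shown. Over all promoters the core was present in 8.16% of windows with a WT High peak only and 5.12% of those with a WT Negative peak only. Its share among all windows was 8.57%, so the promoters shown do not stand for their side.

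Over whole lists, 48.8% of the WT High peaks were High-only (21558 of 44195, 95% Clopper-Pearson interval 48.3 to 49.2) and 41.0% of the WT Negative peaks were Negative-only (15761 of 38439, 40.5 to 41.5). Such intervals cover counting error only, and with 1 pooled list per group no difference could be tested against replicates. Among the top 20000, the shares were 28.4% (5677 peaks, 27.8 to 29.0) and 23.5% (4709 peaks, 23.0 to 24.1). The gap between the directions moved with list length: with WT High trimmed to its 38439 strongest peaks, the shares were 44.5% and 44.2%. With peaks scoring 5 or more in both lists, the order turned, at 41.7% of 24258 and 42.6% of 24870. The part of sequencing depth, unknown for both lists, in this gap was not tested.

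The share of peaks found in 1 list was higher among weaker peaks in both directions. In the strongest decile of the lists, 9.75% of WT High peaks were High-only and 7.91% of WT Negative peaks were Negative-only. In the weakest decile these shares were 78.0% and 71.4%. Each decile had a higher share than the stronger one before it, in both lists.

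**Figure D1:**
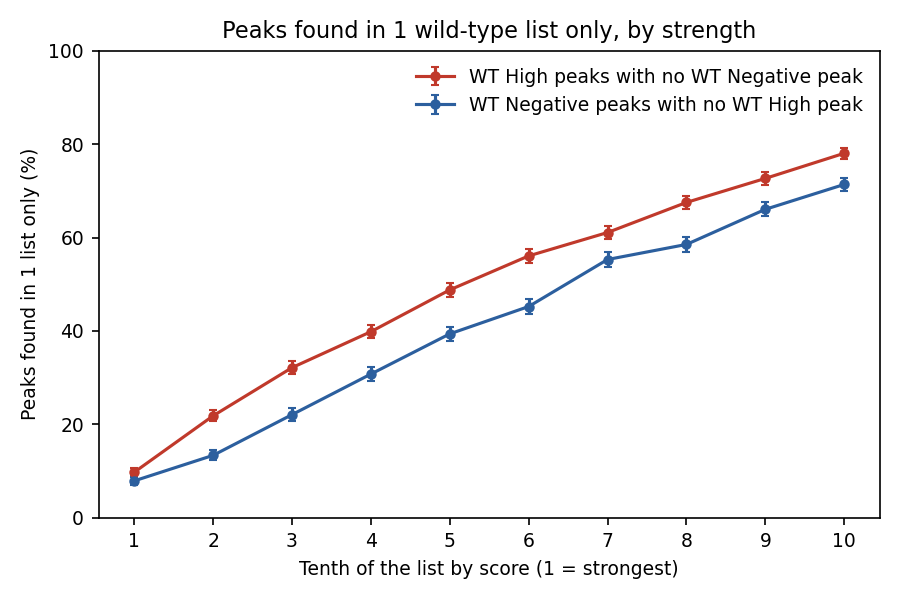
Share of peaks found in 1 of the 2 wild-type lists only (y axis, percent) in deciles of each list ordered by score (x axis, 1 the strongest), with 95% Clopper-Pearson intervals as bars. The WT High line runs from 9.75% to 78.0% and the WT Negative line from 7.91% to 71.4%.

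High-only and Negative-only peaks were narrow and mostly away from promoters. The median width was 352 bp for High-only and 578 bp for shared WT High peaks, and 326 bp against 530 bp in the WT Negative list. A window from 250 bases before to 50 bases after a RefSeq start was touched by 5.56% of High-only peaks and by 32.4% of shared WT High peaks. In the WT Negative list the same shares were 4.63% and 32.1%. High-only peaks lay inside gene bodies in 47.4% of cases against 35.1% of shared peaks, and more than 100 kb from any protein-coding gene in 13.1% against 7.13%. High-only peaks covered 8.85 Mb and shared WT High peaks 15.2 Mb. Negative-only peaks covered 6.21 Mb and shared WT Negative peaks 14.8 Mb. Among the top 20000, the promoter shares were nearly the same (5.64% of High-only and 4.61% of Negative-only peaks), so the low share was not limited to weak peaks.

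The peaks were then looked up in the 4 lists that played no part in choosing them. Of these, WT Middle came from the same wild-type allele and the 3 dHx lists from other embryos. Of the 5677 High-only peaks among the top 20000, 63.9% overlapped a peak in dHx High (62.6 to 65.1) and 32.1% one in dHx Negative (30.9 to 33.3). Of the 4709 Negative-only peaks, 24.3% overlapped a peak in dHx High (23.1 to 25.5) and 64.9% one in dHx Negative (63.5 to 66.2). The dHx Negative list was the longest of the 6, with 48244 autosomal peaks against 36070 in dHx High. The top shared WT High peaks were found in these lists in 94.0% and 87.6% of cases. Peaks on each side of the wild-type contrast were thus found more often in the mutant list of the same gate, while the shared peaks were found in both.

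Counting only sites that the 2 dHx lists disagreed on, 2412 of the top High-only peaks were in dHx High and not in dHx Negative, and 610 were the other way round. Of the top Negative-only peaks, 2125 were in dHx Negative and not in dHx High, and 213 were the other way round. Over whole lists the same counts were 5453 against 2722 and 5476 against 881. WT Middle cells held 58.3% of the top High-only and 45.5% of the top Negative-only peaks. No other list held 12.9% of the top High-only and 19.4% of the top Negative-only peaks, or 36.0% and 36.7% over whole lists. The 3 other lists of RFP-positive cells held 1321 of the top High-only peaks (23.3%) in common while dHx Negative lacked them. The same pattern held for 56 of the top Negative-only peaks (1.19%). For 951 of the latter (20.2%), dHx Negative was the single other list with a peak, against 198 of the top High-only peaks (3.49%).

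**Figure D2:**
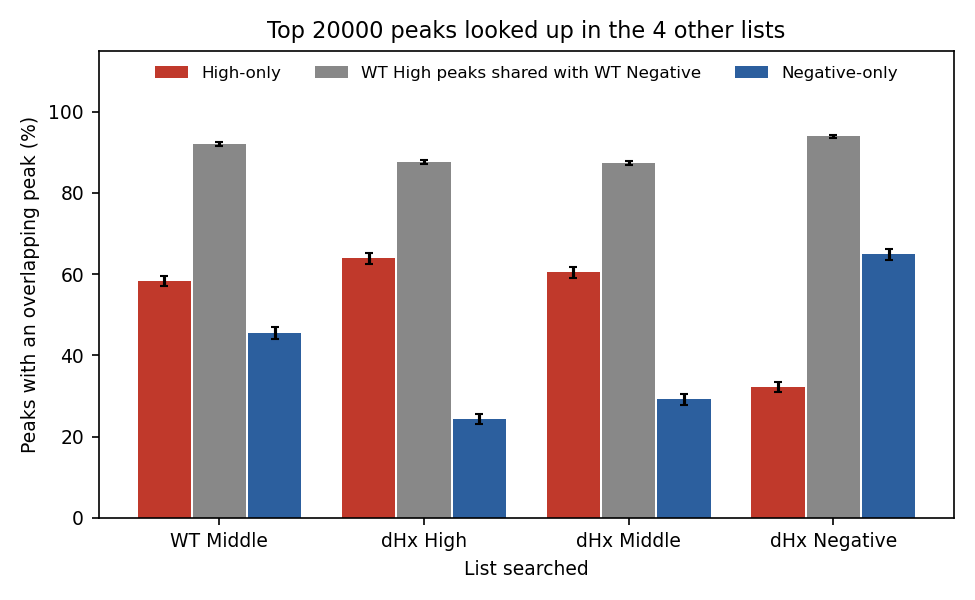
Share of the top 20000 peaks (y axis, percent, with 95% Clopper-Pearson intervals) that overlapped a peak in each of the 4 lists not used to choose them (x axis), for High-only peaks, WT High peaks shared with WT Negative, and Negative-only peaks. High-only bars stand at 63.9% in dHx High and 32.1% in dHx Negative, Negative-only bars at 24.3% and 64.9%, and shared bars between 87.3% and 94.0%.

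Peaks at promoter windows behaved differently from the rest. Of the 320 top High-only peaks at a promoter window, 65.9% were in both dHx High and dHx Negative, 20.3% in dHx High alone of these and 6.56% in dHx Negative alone. Of the 2723 inside genes, 18.8% were in both, 44.3% in dHx High alone and 11.5% in dHx Negative alone. Of the 761 beyond 100 kb from a gene, 44.5% were in dHx High alone and 9.72% in dHx Negative alone. Negative-only peaks followed the same order: 56.2% of the 217 at promoter windows were in both lists, and 47.8% of the 604 beyond 100 kb were in dHx Negative alone. Of the 2412 top High-only peaks found in dHx High and not dHx Negative, 65 stood at a promoter window.

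Each peak was next given to the closest protein-coding gene, if one lay no more than 100 kb away. At least 1 peak of either list was assigned to 16229 autosomal genes. High-only peaks outnumbered Negative-only peaks at 6280 of these (38.7%), the reverse was true at 4027 (24.8%), and at 5922 the numbers were equal. Genes are called High-side or Negative-side by this net number. Of all assigned peaks, 47.1% of WT High peaks were High-only and 39.7% of WT Negative peaks were Negative-only. These are the values against which the gene lists are set. A net number of 5 or more toward High was found for 329 genes (2.03%) and of 5 or more toward Negative for 118 (0.727%). Nearest-gene assignment is a convention, and a peak need not act on the gene it is assigned to.

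Genes of the definitive endoderm, the layer that forms the gut, had more High-only peaks. Of 28 genes, 18 were High-side, 5 Negative-side and 5 equal, with a median net number of 1 against 0 over all genes. Of their WT High peaks, 81 of 144 were High-only (56.2%, 47.7 to 64.5), and of their WT Negative peaks, 44 of 107 were Negative-only (41.1%). Foxa2 itself, on whose protein the cells were sorted, had 7 High-only of 16 WT High peaks and 2 Negative-only of 11 WT Negative peaks. Its strongest High-only peak, chr2:148040022-148042179, was 2158 bp wide, scored 22.2 and recurred in all 4 other lists. Sox17, an HMG-box factor needed for endoderm, had 5 High-only of 9 and 1 Negative-only of 4 peaks. Foxa1 had 4 High-only of 5, and its single WT Negative peak was shared. Its strongest High-only peak, chr12:57538531-57539734, was 1204 bp wide, scored 15.5 and recurred in each of the other lists but dHx Negative.

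Of the 5 Negative-side members of the endoderm list, Eomes, Emb and Sox2 had the largest net numbers. Eomes, a T-box factor of the streak and its early mesoderm as well as of the endoderm, had 2 High-only of 6 and 8 Negative-only of 12 peaks. Its strongest Negative-only peak, chr9:118468189-118468651, scored 24.2. Sox2, a factor of neural ectoderm and anterior foregut, had no WT High peak and 2 Negative-only peaks. Emb, which encodes the cell surface protein embigin, had 3 High-only of 10 and 6 Negative-only of 13.

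Epithelial adhesion and polarity genes had the largest net number of High-only peaks of the 13 lists. Of 29 genes, 20 were High-side and 4 Negative-side, with a median net number of 2. High-only peaks made up 104 of 165 (63.0%, 55.2 to 70.4) and Negative-only peaks 33 of 94 (35.1%, 25.5 to 45.6). For Cdh1, the E-cadherin gene, 8 of 10 WT High peaks were High-only and 1 of 3 WT Negative peaks Negative-only, and for Krt18 these were 6 of 10 and 0 of 4. Tjp1, which encodes the tight junction scaffold ZO-1, had 8 of 8 and 1 of 1, so none of its wild-type peaks was shared. Magi1, a scaffold of cell junctions, had 18 of 21 and 3 of 6, and Pard3, a polarity protein, had 12 of 17 and 6 of 11. Cldn4, a claudin, was the listed exception with a net number of 2 toward Negative (0 High-only of 2, 2 Negative-only of 4). The list shares Cdh1, Krt18 and other members with the endoderm list, so the 2 counts are not separate.

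Visceral endoderm genes, which mark the outer layer around the epiblast that later joins the gut, had a larger share of High-only peaks than all genes. The list held 26 High-only of 41 WT High peaks (63.4%, 46.9 to 77.9) and 11 Negative-only of 27 WT Negative peaks (40.7%). Of 19 genes, 8 were High-side, 6 Negative-side and 5 equal. At the transthyretin gene Ttr, 4 WT High peaks were all High-only, and WT Negative had no peak. Apob and Cubn each had 3 High-only of 4 and 1 Negative-only of 2. Sox7 had no WT High peak and 2 Negative-only peaks.

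Over all peaks, node and notochord genes were divided. Shh, the secreted signal of the notochord, had 5 High-only of 6 peaks and its single WT Negative peak was shared. Noto had 4 High-only of 5, Chrd, which encodes the BMP antagonist chordin, 2 of 3, and Col2a1, a collagen of the notochord sheath, 4 of 7. Sox9 and Nog had the opposite balance, with 7 Negative-only of 11 and 7 of 8 WT Negative peaks. Sox9 encodes an HMG-box factor and Nog the BMP antagonist noggin. Over the list, 12 genes were High-side and 8 Negative-side, 38 of 66 WT High peaks were High-only (57.6%) and 34 of 61 WT Negative peaks were Negative-only (55.7%). Among the top 20000 peaks the list leaned to High, with 14 of 25 High-only (56.0%, 34.9 to 75.6) and 6 of 24 Negative-only (25.0%). The shares over all assigned peaks of that strength were 26.7% and 22.3%. At that strength 9 genes were High-side and 3 Negative-side. Nog and Sox9 each had a net number of 2 toward High there, so the direction of these 2 genes turned with peak strength.

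Hedgehog pathway genes were divided, also within the coreceptors. Cdon and Boc, which encode coreceptors for Shh, had 4 High-only of 8 and 6 of 9 WT High peaks, against 0 Negative-only of 4 and 2 of 5. Gli3, the transcription factor that acts mainly as the repressor of the pathway, had 6 of 13 and 1 of 8. The coreceptor gene Gas1, the inhibitor gene Sufu and the activator gene Gli1 had more Negative-only peaks, 4 of 7, 4 of 7 and 2 of 3. Of the 20 genes, 9 were High-side, 6 Negative-side and 5 equal. High-only peaks made up 52 of 100 (52.0%, 41.8 to 62.1) and Negative-only peaks 35 of 83 (42.2%, 31.4 to 53.5). Both intervals held the shares over all genes, 47.1% and 39.7%. Cilium genes, which include those of the beating cilia of the node, held 45 High-only of 66 peaks (68.2%, 55.6 to 79.1) and 26 Negative-only of 47 (55.3%). Ift57, an intraflagellar transport gene, had 7 of 9 and 0 of 2, and Dnah5, an axonemal dynein gene, had 8 of 9 and 4 of 5. Among top 20000 peaks, 13 of 28 cilium peaks were list-only in each direction.

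**Figure D3:**
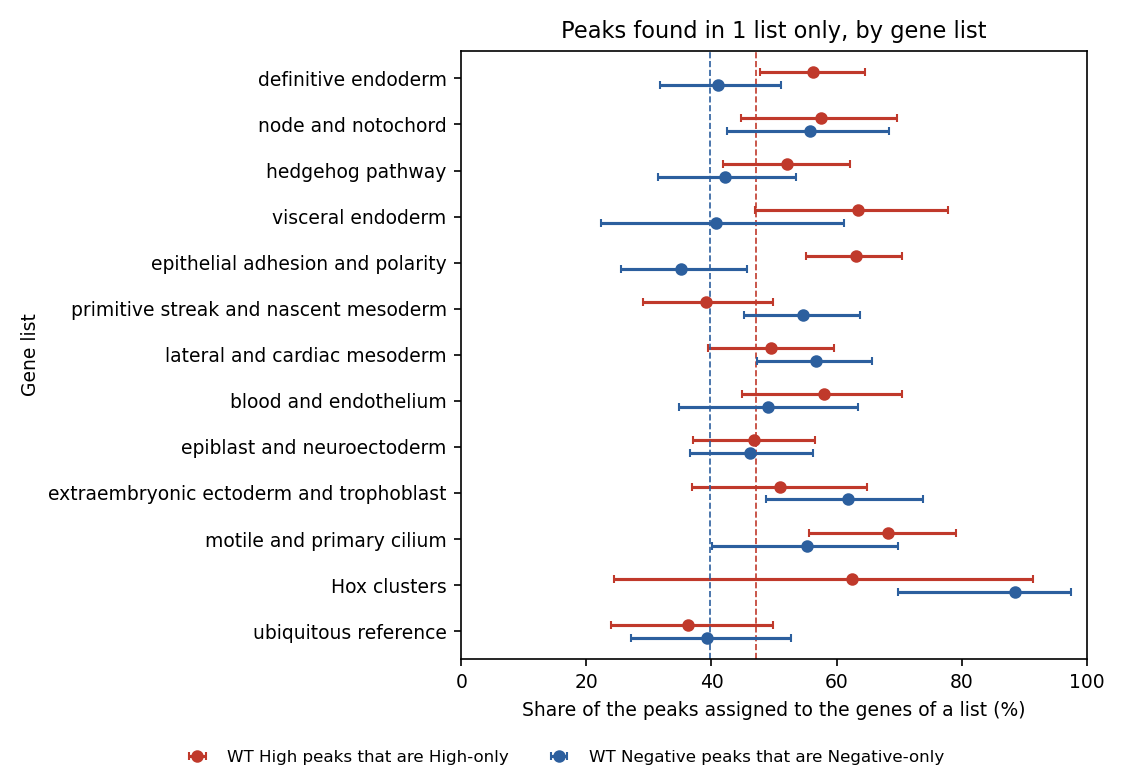
Share of the WT High peaks assigned to each of 13 gene lists that were High-only (red) and share of the WT Negative peaks that were Negative-only (blue), in percent on the x axis with 95% Clopper-Pearson intervals. Dashed lines mark 47.1% and 39.7%, the shares over all assigned peaks. The epithelial list has the widest gap toward High (63.0% and 35.1%), and the streak and Hox lists lean to Negative.

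Primitive streak and nascent mesoderm genes had the reverse balance. Of 29 genes, 15 were Negative-side, 8 High-side and 6 equal, with a median net number of -1. Negative-only peaks made up 65 of 119 (54.6%, 45.2 to 63.8) and High-only peaks 36 of 92 (39.1%, 29.1 to 49.9). Lef1, a nuclear effector of Wnt signalling, had 10 Negative-only of 14 and 4 High-only of 8 peaks, and Axin2, a Wnt feedback gene, had 7 of 10 and 2 of 5. Cdx2 had 4 of 6 Negative-only and 0 of 3 High-only. On the other side of this list, Cdh2, which encodes N-cadherin, had 3 High-only of 8 and 0 Negative-only of 5, and Pdgfra had 3 of 5 and 0 of 2. When a peak counted for every gene within 100 kb, the net number of the list turned from -29 to 2.

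Lateral and cardiac mesoderm genes held 68 Negative-only of 120 peaks (56.7%, 47.3 to 65.7) and 51 High-only of 103 (49.5%). Both shares were above those over all genes, and 14 of 28 genes were Negative-side against 10 High-side. Hand1, a basic helix-loop-helix factor of extraembryonic and cardiac mesoderm, had 6 WT Negative peaks, all Negative-only, and no assigned WT High peak. Prrx1 had 6 Negative-only of 7 peaks and 1 WT High peak, which was shared. Meis2, a homeobox cofactor, had 8 Negative-only of 15 and 2 High-only of 9. The BMP ligand genes of the list had more High-only peaks: Bmp2 had 9 of 13 and 4 Negative-only of 8, Bmp7 had 4 of 8 and 1 of 5, and Bmp4 had 3 of 6 and 0 of 3.

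Blood and endothelial genes were divided as well, with 36 High-only of 62 peaks (58.1%) and 25 Negative-only of 51 (49.0%). Runx1, a blood factor also made in other embryonic tissues, had 11 High-only of 15 and 1 Negative-only of 5, but when dHx High and dHx Negative were compared in the same way, 3 of 8 and 7 of 12 were list-only. Kdr, a VEGF receptor gene, had 4 of 4 and 1 of 1. Flt1, the other VEGF receptor gene of the list, had 5 Negative-only of 10 and 0 High-only of 5. Of the 25 Negative-only peaks, 13 (52.0%) were in dHx Negative and not dHx High and none was the other way round. Over all genes these shares of Negative-only peaks were 34.6% and 5.98%. Of the 36 High-only peaks, 7 were in dHx High and not dHx Negative and 5 the other way round, where the shares over all genes were 25.5% and 12.9%. The list's net number was 11 toward High over all peaks and 1 toward Negative among the top 20000.

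Epiblast and neuroectoderm genes showed nearly equal shares over all peaks, with 50 of 107 High-only (46.7%) and 49 of 106 Negative-only (46.2%). Among the top 20000 they leaned to Negative, with 5 of 31 High-only (16.1%) and 16 of 42 Negative-only (38.1%), against 26.7% and 22.3% over all assigned peaks of that strength. Tfap2a had 6 Negative-only of 8 and 0 High-only of 2 peaks, Zic1, a zinc finger factor of the neural plate, 5 of 6 and 0 of 1, and Pax6, a factor of eye and forebrain, 5 of 9 and 1 of 5. Other members lay on the High side. Six3, a forebrain factor, had 7 High-only of 9 and 2 Negative-only of 4, although none of its High-only peaks was among the top 20000. Otx2, which is also made in anterior endoderm, had 4 of 7 and 2 of 5. Sox11 had 7 of 9 and 0 of 2.

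The Hox clusters held few WT High peaks. Of 34 genes, 18 had an assigned peak, and these had 26 WT Negative but 8 WT High peaks. Negative-only peaks made up 23 of the 26 (88.5%, 69.8 to 97.6). Hoxd3 had 4 WT Negative peaks, all Negative-only, Hoxb1 had 2 of 4, and Hoxa3 had 2 of 2. Negative-side genes numbered 14, against 3 High-side genes. In the dHx lists, 12 of the 23 peaks (52.2%) were in dHx Negative and not dHx High, and none was the other way round. Over all genes these shares of Negative-only peaks were 34.6% and 5.98%, so few of 23 peaks would ordinarily be the other way round. The extraembryonic ectoderm and trophoblast list, read because such cells could remain after dissection, held 39 Negative-only of 63 peaks (61.9%, 48.8 to 73.9) and 27 High-only of 53 (50.9%). Hand1, Cdx2 and Eomes, with 6, 4 and 8 of the Negative-only peaks, also stand in lists of embryonic tissues. Of the members in no other list, Tfap2c had 4 Negative-only of 6 and 0 High-only of 2 peaks, Gata3 had 5 of 8 and 3 of 7, Tead4 had 3 of 6 and 0 of 3, and Bmp8b had 2 of 2 and 1 of 1. On the High side, Esrrb had 4 High-only of 5 and 2 Negative-only of 3 peaks, and Furin had 2 of 2 and no WT Negative peak. Ets2, Wnt7b, Spint2 and Plet1 each had a net number of 1 toward High. Elf5 had a single WT High peak, which was High-only, and Ascl2 a single WT Negative peak, which was Negative-only. By genes the list did not lean to Negative, with 9 High-side and 8 Negative-side members and a median net number of 1. The part of extraembryonic cells in the Negative-only peaks was not tested.

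Ubiquitous genes, taken as a reference, had shares below or near those over all genes: 21 of 58 High-only (36.2%, 24.0 to 49.9) and 24 of 61 Negative-only (39.3%). Ncl, which encodes nucleolin, was the member with the largest net number, with 8 Negative-only of 10 and 0 High-only of 2 peaks. Ywhaz had 7 High-only of 12 and 2 Negative-only of 8.

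**Figure D4:**
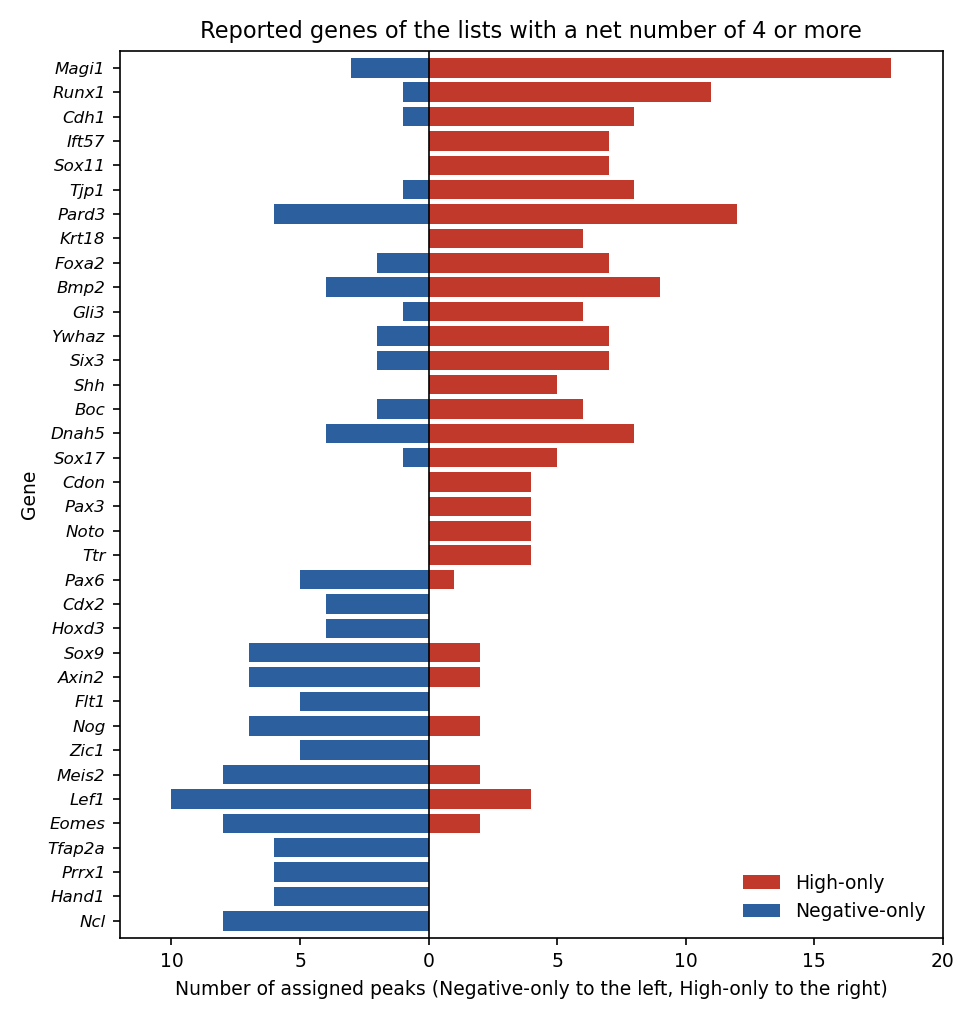
Number of assigned High-only peaks (red, to the right) and Negative-only peaks (blue, to the left) for the reported genes of the lists whose net number is 4 or more in either direction. Magi1 reaches 18 High-only peaks and Runx1 11, while Hand1, Prrx1 and Tfap2a have 6 Negative-only peaks each and no High-only peak.

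The list-only peaks of the wild-type pair were also looked up in the dHx lists, which share no sample with it. At endoderm genes, 37 of the 81 High-only peaks (45.7%) were in dHx High and not dHx Negative, and 4 were the other way round. Over all genes the corresponding share was 25.5%, with 12.9% the other way round. At epithelial genes it was 43 of 104 (41.3%) against 9, and at hedgehog genes 21 of 52 (40.4%) against 8. The Negative-only peaks of hedgehog genes were likewise matched, with 17 of 35 (48.6%) in dHx Negative and not dHx High and 2 the other way round. At streak genes, 26 of 65 Negative-only peaks were in dHx Negative and not dHx High and 1 the other way round, where the share over all genes was 34.6%. At lateral and cardiac mesoderm genes these numbers were 30 of 68 (44.1%) and 3, and 17 of their 51 High-only peaks (33.3%) were in dHx High and not dHx Negative. Peaks of both sides were thus matched at one list of loci. When dHx High and dHx Negative were compared with each other, with 3488 High-side and 5985 Negative-side genes in all, endoderm genes had more High-side (13) than Negative-side (9) members and epithelial genes did too (18 and 8). Hedgehog genes did not (4 and 11, against 9 and 6 in the wild-type pair). Among single listed genes, Cdh1 had 6 of 8 High-only peaks in dHx High and not dHx Negative, and Krt18 had 5 of 6, with none of either gene the other way round. The mesoderm-list gene Bmp2 likewise had 5 of 9 and none the other way round, and Pard3 had 5 of 12 and 1. Several other listed genes had fewer such peaks: Magi1 had 3 of 18, 2 the other way round and 12 in neither dHx list. Shh had 2 of 5 and 2 the other way round, Noto 2 of 4 and 1, and Foxa2 2 of 7 and 1. Of the 6 Negative-only peaks of Hand1, 1 was in dHx Negative and not dHx High and 5 were in neither.

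**Figure D5:**
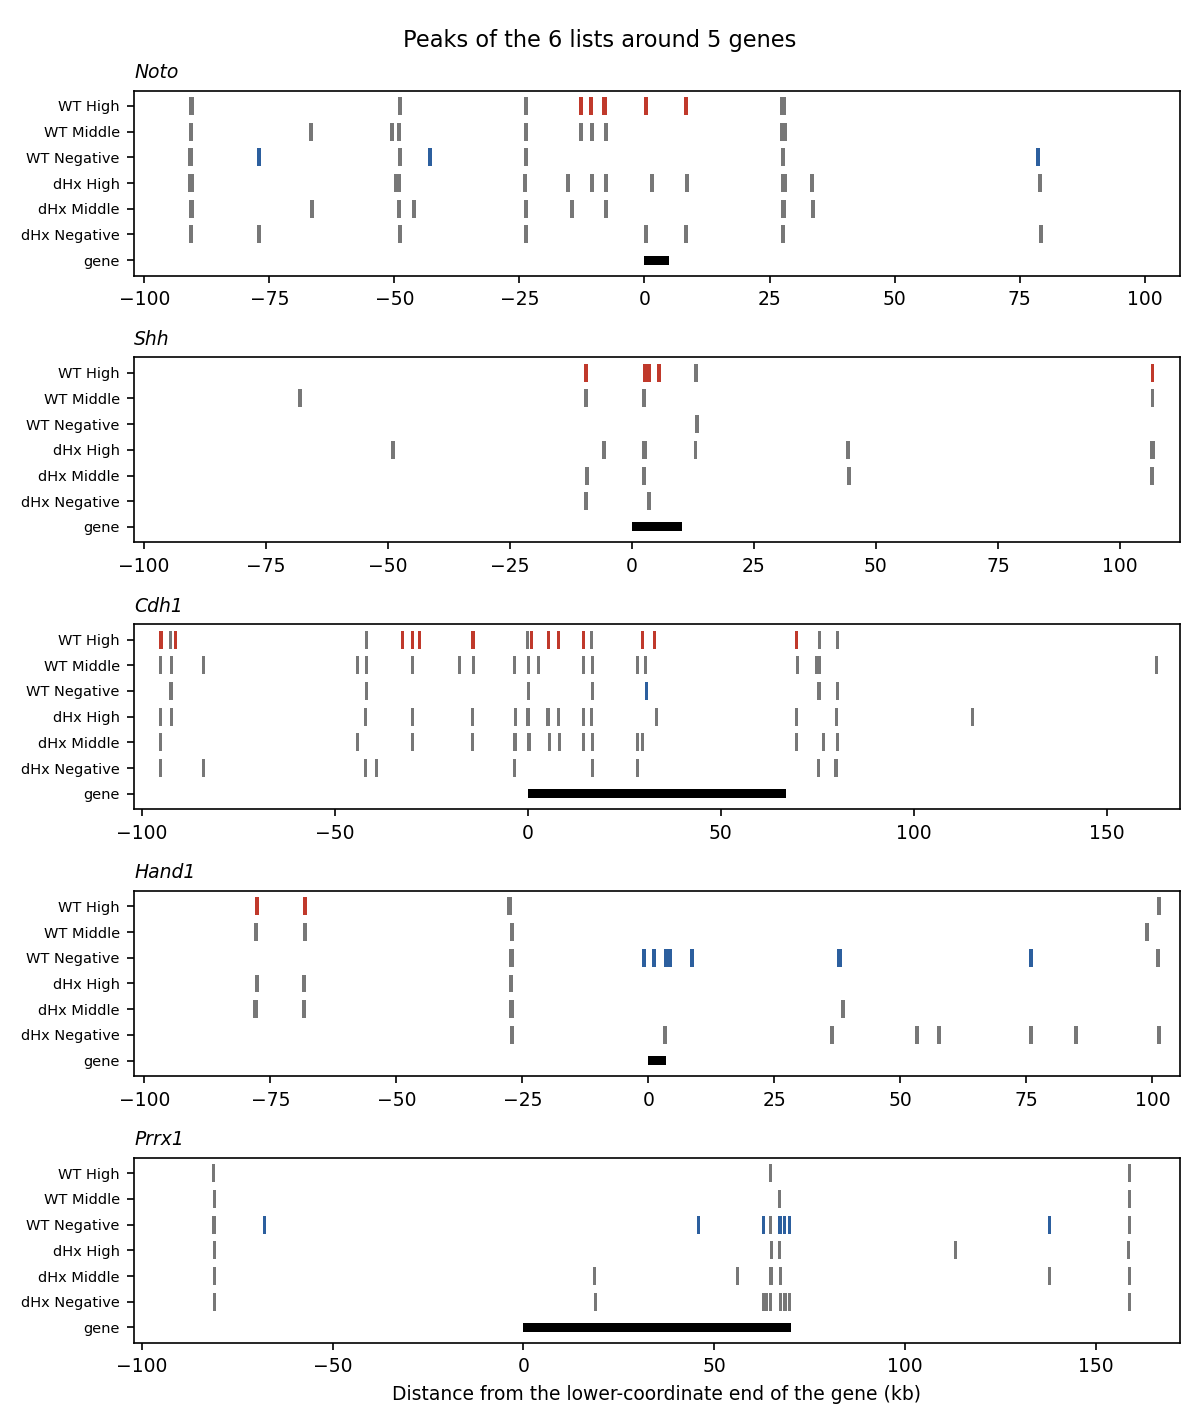
Peaks of the 6 lists (rows) around 5 genes, by distance from the lower-coordinate end of the gene (x axis, kb), with the gene body as a black bar. Red and blue mark High-only and Negative-only peaks, and grey marks shared peaks of the 2 lists and all peaks of the other 4; peaks narrower than 0.8 kb are drawn 0.8 kb wide. Around Shh, 5 of the 6 WT High peaks in view are red and no WT Negative peak is blue, whereas 7 blue peaks stand around Hand1 and 7 around Prrx1.

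At the level of promoters the 2 gates differed less. Of 20084 autosomal promoter windows of 16456 genes, 8746 (43.5%) lay under peaks of both lists, 1594 (7.94%) under a WT High peak only and 937 (4.67%) under a WT Negative peak only. No peak of either list lay over 8807. Endoderm genes with a High-side window were Foxa1, Foxa2, Krt18, Otx2 and Trh, the last encoding thyrotropin-releasing hormone. Both Foxa2 windows lay under 1 WT High peak (chr2:148045570-148047200, score 23.6) that overlapped a WT Negative peak beyond the windows, so this is a difference in extent within a shared peak. Noto and Nodal from the node list, Apoa1 and Apoe from the visceral list, and Tjp1 from the epithelial list were also on the High side. The High side also held the streak and mesoderm genes Mesp1, Mesp2, Lef1, Sp8 and Meis1, the endothelial gene Kdr, Lin28a and Hoxd9. The Negative side held homeobox, Sox and Zic genes: Sox1, Sox2, Zic1, Zic5, Nkx6-1, Nkx6-2, Cdx2, Evx1, Hoxb1, Hoxb4, Hoxd1 and Hoxd8. It further held the mesoderm genes Prrx1, Twist1, Foxc1, Mef2c and Actc1, the last encoding cardiac actin. The cilium genes Cfap126 and Spag17, the hedgehog genes Disp1 and Scube2 and the epithelial gene Magi1 were on the Negative side as well. Sides are given by window, and a gene can have another window under peaks of both lists. Such a window was found for 13 of 21 endoderm, 17 of 21 epithelial and 13 of 18 cilium genes. No epithelial gene, Magi1 included, was on the Negative side without one. The highest-scoring Negative-side promoter peaks of the lists were those of Magi1 (27.0) and Nkx6-1 (21.5), followed by Prrx1 (15.1) and Cdx2 (13.8). As at Foxa2, the peaks at Magi1, Nkx6-1, Zic5, Mef2c, Apoe, Nodal, Lef1, Lin28a and Sp8 were shared ones that differed in extent.

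Promoters with a peak in 1 list stood between the other classes in base composition. The median GC content of the 250 bases was 61.6% with peaks in both lists, 60.0% in High-side windows, 58.8% in Negative-side windows and 48.0% with no peak. The median number of CpG dinucleotides was 17, 15, 12 and 3 in the same order. The forkhead core, searched on both strands, was present in 130 High-side windows (8.16%), 48 Negative-side windows (5.12%), 5.42% of windows with both and 12.1% of windows with no peak, against 8.57% of all. The GATA core AGATAA or TTATCT was present in 6.02% of High-side and 7.26% of Negative-side windows, against 8.72% of all. The homeobox core TAATTA, which is its own reverse complement, was present in 2.63% and 2.45%, against 4.25% of all. The motifs were chosen after results of these data were known, and a match is a description of the letters only. Of the High-side windows, 69.4% had a dHx High peak and 58.3% a dHx Negative peak. Of the Negative-side windows, 53.1% had a dHx High peak and 63.4% a dHx Negative peak.

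Of 919 autosomal microRNA hairpins, 62 lay in a WT High peak, 52 in a WT Negative peak and 39 in peaks of both. High-only peaks held 13 (1.41% of the 919) and Negative-only peaks 6 (0.653%). Hairpins in peaks were thus list-only less often than peaks in general (48.8% and 41.0%). The High-only hairpins included that of Mir21a (peak score 3.05, in none of the other lists). The Negative-only hairpins included that of Mir191 (4.16, also in each other list but dHx Negative). They are shown with the seed, bases 2 to 8, in capitals, and their seeds differ. The sequences are from RefSeq.
mmu-miR-21a-5p: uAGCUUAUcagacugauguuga
mmu-miR-191-5p: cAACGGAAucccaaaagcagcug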

How the data were processed

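ATAC-seq of sorted embryonic cells was analysed from 6 deposited peak lists on mm10, 1 per group of 2 samples. STAR 2.5.2a and MACS2 are named per the submitters' processing notes. Not given in the sources used here: their roles and settings, and the reads per sample. Peak names per the deposited files hold the word Pooled, which was taken to mean both samples of a group together, and no replicate values were used. The deposited score is unnamed and was taken, from its values, for the authors' −log10 p-value or q-value. It grows with depth and was used only to rank and filter within a list.

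Lines with the same chromosome, start and end were merged with the highest score kept, and chromosomes 1 to 19 used. At the border of the top 20000, 1488 of 2575 WT High peaks tied at 7.04 and 1401 of 2857 WT Negative peaks tied at 6.07 were included. Gene bodies, promoter windows and sequences came from RefSeq tables of GRCm38.p6. A peak went to the closest protein-coding gene up to 100 kb away. Shares carry Clopper-Pearson 95% intervals, and no p-value was computed because peaks and genes are not replicates. Scripts used Python 3.11.15, pandas 2.3.3, numpy 2.4.6, scipy 1.17.1 and matplotlib 3.10.9, and overlap, merging and assignment were tested on simulated data.

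The members, the 13 gene lists (303 distinct genes, 297 of them on autosomes) and the motifs were chosen with earlier results of these data known. Dnai1 was not matched, and 5 genes lie on X. A few named genes are not reported here, but the counts of their lists include them. The rule named Foxa2, and per list up to 4 genes with the largest and up to 3 with the smallest net number (High-only minus Negative-only peaks) of 2 or more in size. It also named the 10 largest and 10 smallest net numbers over all genes, the highest-scoring list-only peak of each named gene, the 10 highest-scoring peaks of each side, and list members with a promoter peak in 1 list. Foxa1, Elf5, Ascl2, Tfap2c, Gata3, Tead4, Ets2, Wnt7b, Spint2 and Plet1 were named outside the rule for genes, after their values were seen. The alternatives tried were a larger minimum overlap, sex chromosomes, a score minimum, dense bins left out, unmerged lines, equal list lengths, other top lists and other gene assignments.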

Additional observations from a re-analysis of the deposited data

How the results depend on the processing

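In the order High-only share, Negative-only share, top 20000 High-only share and top 20000 Negative-only share, the values were 48.8%, 41.0%, 28.4% and 23.5%. They moved to 51.0%, 43.7%, 29.2% and 24.9% when the overlap had to reach 50% of the shorter peak, to 41.7%, 42.6%, 36.7% and 36.5% with a score of 5 or more in both lists, and to 44.7%, 35.9%, 23.8% and 17.6% with each deposited line taken as a peak. With X and Y included they moved by less than their intervals. Leaving out the 946 of 2412 1-Mb bins with 40 or more regions gave 53.3% and 42.8% and too few peaks for a top 20000. Leaving out the 56 bins with 100 or more, chosen after seeing the data, gave 49.5%, 40.2%, 31.2% and 25.7%. Lists of equal length gave 44.5% and 44.2%, the top 10000 gave 17.1% and 13.0%, and the top 20000 of the other list gave 42.6% and 42.3%.

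Net numbers of lists turned as follows. With every gene within 100 kb counted, the streak list gave 2 (from -29), the extraembryonic list 3 (from -12) and the ubiquitous list 8 (from -3), and Sufu gave 5. With lists of equal length, the node list gave -1 (from 4) and the epiblast list -19 (from 1). Among the top 20000 the epiblast list gave -11, the blood list -1 (from 11), Dnah5 -1, and Nog and Sox9 2 each. Within 20 kb the epiblast list gave -4 and Gas1 gave 1. In the top 20000, 95 of 104 net numbers moved and 21 were 0, among them those of Krt18, Ttr, Six3, Gli3, Pdgfra and Sox2. The cause was not tested. No paired analysis was possible because both replicates of a group were pooled into 1 list, so no replicate could be left out either.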

Other observations

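Several genes outside the gene lists had large net numbers toward High. Net numbers were adjusted neither for gene length nor for the longer WT High list. Macrod2, Auts2 and Nrxn3 are long genes with many assigned peaks of both lists. Macrod2 had 21 High-only of 31 and 10 Negative-only of 20 peaks, Auts2 22 of 37 and 11 of 26, Nrxn3 20 of 31 and 8 of 19, Tle3, a Groucho family corepressor gene, 15 of 26 and 3 of 14, and Tln2, a talin gene, 14 of 20 and 2 of 8. Among the top 20000, Auts2 had 5 peaks of each kind. Between dHx High and dHx Negative the balance turned for Macrod2 (11 of 18 and 20 of 28), Auts2 (12 of 24 and 26 of 39) and Nrxn3 (13 of 19 and 18 of 24). Rarb, a retinoic acid receptor gene named after its values were seen, had 11 High-only peaks, of which 8 were in dHx High and not dHx Negative and none the other way round. The genes with the largest net numbers toward Negative lie in multi-copy families, where reads can be split between near-identical copies. Zfp993 had 55 Negative-only of 72 peaks, Zfp978 41 of 66 and Zfp980 36 of 52, and these counts are uncertain.

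List-only peaks also stood in rows along the genome, with no peak of the other list between them. The longest High-only runs held 14 peaks, 1 over 163.8 kb at A4galt and Arfgap3 and 1 over 887.8 kb near Fzd8, which encodes a Wnt receptor. A run of 11 High-only peaks over 304.6 kb ended at Foxa1. Negative-only runs held 12 peaks over 165.4 kb near Ramp3, 10 over 111.6 kb at Zic1 and Zic4, and 7 over 77.0 kb at Hand1. The median run of each side was a single peak.

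The strongest Negative-only peak, 232 bp inside Flt1 (chr5:147611439-147611670), scored 1295 and ranked 3 in its list, and WT Middle and dHx Negative also held a peak there. The strongest High-only peak, 62.8 kb from Cntnap5c, scored 225.1, ranked 60 and was present in all 4 other lists.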
